A study of Mus musculus with 11 samples.

Results

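The genes described here are 7 transcripts by which resident macrophages of the heart are commonly recognised: Siglec1, Timd4, Cd163, Lyve1, Folr2, Mrc1 and F13a1. They were taken by symbol from a deposited table of 35584 genes, all 7 were present there and in a second table on a TPM scale (abundance per transcript length), and all 7 passed the minimum mean of 10 normalised counts that was set for testing. The whole heart was the source of RNA, all mice were males of 8 to 12 weeks, and the 11 libraries fell into 4 groups. The Macrophage-depleted mice (n = 3, titled cTMs Depleted) had the genotype CD169-DTR and were given Diphtheria Toxin (0.01 µg per g body weight, 3 injections a week over 3 weeks), with a stated depletion of 21 days. WT mice (n = 3) were given the same toxin course and carried no CD169-DTR allele. The Mertk-KO mice (n = 2) and the mice titled LxRαβ DKO (LXR-DKO below, n = 3) are labelled by genotype alone, and whether they had toxin is not stated there. Where these mice are compared with the toxin-treated groups, genotype and toxin therefore cannot be told apart. In CD169-DTR mice the toxin receptor is placed at the locus of Siglec1, the gene for CD169, so for Siglec1 itself loss of cells and an effect of the allele cannot be told apart. No label ties the libraries to separate mice, so the spread that p-values rest on is that between libraries and may be technical.

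Resident macrophages of the heart settle early in life, maintain themselves largely without monocytes, and clear dying cells, cell debris and iron-containing proteins from the muscle. The products of the 7 genes differ in function. Siglec1 (CD169) is a lectin that binds sialic acid on other cells, Timd4 is a receptor for phosphatidylserine exposed on dying cells, and Cd163 is a scavenger receptor for haemoglobin bound to haptoglobin. Folr2 binds folate, Mrc1 (CD206) is an endocytic receptor for mannose-bearing glycoproteins and collagen fragments, and Lyve1 is a hyaluronan receptor that lymphatic endothelium also carries. F13a1 is not a receptor: it encodes the catalytic subunit of coagulation factor XIII, a transglutaminase that cross-links fibrin and is also made by megakaryocytes and monocytes.

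In the GRCm38 assembly with the GENCODE M21 annotation, all 7 are protein-coding genes. Siglec1 (ENSMUSG00000027322) lies on the minus strand at chr2:131069220-131086765, and Mrc1 (ENSMUSG00000026712) on the plus strand at chr2:14229392-14332057. Timd4 (ENSMUSG00000055546) lies on the plus strand at chr11:46810800-46844332 and Cd163 (ENSMUSG00000008845) on the plus strand at chr6:124304656-124330527. Lyve1 (ENSMUSG00000030787) and Folr2 (ENSMUSG00000032725) are both on the minus strand of chromosome 7, at chr7:110850607-110863239 and chr7:101839988-101857194. F13a1 (ENSMUSG00000039109) lies on the minus strand at chr13:36867178-37050244. The gap between Siglec1 and Mertk, the targeted gene of one group, is 2.27 Mb on chromosome 2.

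The 250 bases upstream of the transcript start are shown for Timd4 and Cd163, the 2 genes that passed the threshold against WT in Macrophage-depleted hearts, for Folr2, which shares a motif with Timd4, and for Mrc1, whose depletion was among the smallest of the 7. The sequences are from RefSeq (GRCm38.p6), which matched 5 of the 7 genes, and are written 5′ to 3′ on the gene's strand, with capitals marking each match to the composite motif of ETS and IRF factors such as PU.1 with IRF8 (GGAA and GAAA, set apart by any pair of bases). The windows are chr11:46810549-46810798 (plus strand) for Timd4, chr6:124304401-124304650 (plus) for Cd163, chr7:101857191-101857440 (minus) for Folr2 and chr2:14229164-14229413 (plus) for Mrc1.
Timd4: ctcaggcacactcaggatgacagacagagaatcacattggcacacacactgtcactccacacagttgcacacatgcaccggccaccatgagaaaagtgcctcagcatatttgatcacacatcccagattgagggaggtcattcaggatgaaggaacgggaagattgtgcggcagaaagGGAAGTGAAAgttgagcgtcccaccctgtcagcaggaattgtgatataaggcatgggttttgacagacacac
Cd163: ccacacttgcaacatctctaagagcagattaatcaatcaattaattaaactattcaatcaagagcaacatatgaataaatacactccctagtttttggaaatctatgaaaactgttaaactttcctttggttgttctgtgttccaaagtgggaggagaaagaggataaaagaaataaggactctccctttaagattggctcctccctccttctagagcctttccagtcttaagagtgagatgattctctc
Folr2: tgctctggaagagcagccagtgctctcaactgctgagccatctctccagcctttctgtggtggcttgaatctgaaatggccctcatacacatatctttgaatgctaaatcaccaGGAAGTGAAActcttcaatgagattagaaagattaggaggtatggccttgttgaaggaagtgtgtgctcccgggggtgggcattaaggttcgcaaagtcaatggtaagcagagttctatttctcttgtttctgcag
Mrc1: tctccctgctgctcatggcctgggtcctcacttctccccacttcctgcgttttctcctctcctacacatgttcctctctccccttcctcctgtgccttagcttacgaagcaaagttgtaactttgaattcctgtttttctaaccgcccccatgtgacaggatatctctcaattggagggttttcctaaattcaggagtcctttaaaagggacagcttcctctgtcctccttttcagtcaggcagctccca
The same 10 letters, GGAAGTGAAA, begin 72 bases before the start of Timd4 and 136 bases before this start of Folr2. The motif was searched on both strands, and 756 of all 32851 windows of this length (2.3%) hold it. The windows of Cd163, Mrc1 and F13a1 and the other Folr2 window have no match to these letters. Of the other motifs searched on both strands, the PU.1 letters GAGGAAGT (2.44% of windows) were in no window of these genes, and the MAF half-site TGCTGAC (3.81% of windows) was only in that of Timd4, on the opposite strand. AGGTCA, the half-site of nuclear receptors such as the liver X receptors, was in the window of Timd4 and in 14.0% of all windows. CATGTG, an E-box of MITF and TFE factors, was in the windows of Timd4, Mrc1 and the other Folr2 start and in 12.3% of all windows.

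The libraries held 10938600 to 20722295 estimated reads, and values are given below as normalised counts, that is, estimated reads scaled to the mean effective library size. In a library, 0 reads would allow up to 2.12 to 4.22 normalised counts (3 reads), and these floors cover counting error only. Libraries within 2 groups stood apart. Macrophage-depleted 1 kept more Siglec1 than the other 2 libraries of its group, and Macrophage-depleted 3 was the lowest of all 11 libraries for 6 of the 7 genes. For Siglec1 this rests on 1 read against 3 reads in Macrophage-depleted 2, too few to order these 2 libraries. The exception was Timd4, which had 1 to 3 reads in each Macrophage-depleted library, too few to order them. Mertk-KO 2 held the highest level of general macrophage genes, with a summed 184% of the WT mean over 18 pan-macrophage genes (such as Csf1r, Adgre1 and Cd68), against 119% in Mertk-KO 1. Of the targeted genes, those of the liver X receptors were at 27.7 (Nr1h3) and 92.2 (Nr1h2) normalised counts in LXR-DKO against 162 and 531 in WT, that is, at 17.2% and 17.4%. The TPM table put them at 68.4% (adjusted p 0.333) and 59.0% (adjusted p 0.0151) of WT. Mertk was at 82.6 normalised counts in Mertk-KO against 136 in WT, or 60.7% (limma adjusted p 0.0408). The TPM table put it at 64.7% (limma adjusted p 0.123). In Macrophage-depleted and LXR-DKO it was at 72.1% and 72.8% (limma adjusted p 0.439 and 0.364). With 60.7% left in Mertk-KO, a value over the whole gene does not show a complete loss. The part of Mertk that the allele lacks is not stated in the labels.

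Levels between the genes were compared on the TPM scale, which corrects for transcript length. In WT hearts Folr2 had the highest level at 13.2 ± 1.15 (SD, n = 3), ahead of F13a1 at 11.4 ± 0.88. Mrc1 at 7.37 ± 0.679, Lyve1 at 6.10 ± 0.573 and Cd163 at 4.92 ± 0.258 followed. Timd4 at 1.26 ± 0.278 and Siglec1 at 0.795 ± 0.0622 were the least abundant. No pair of neighbours in this order had overlapping ranges over the 3 WT libraries. In Mertk-KO the order was the same except that Lyve1 and Mrc1, with overlapping ranges, changed places. In LXR-DKO the order was that of WT, with overlapping ranges for Folr2 and F13a1, for Mrc1 and Lyve1, and for Timd4 and Siglec1. In Macrophage-depleted hearts F13a1 (5.48), Folr2 (4.70), Mrc1 (4.52) and Lyve1 (4.02) had overlapping ranges between neighbours, and Cd163 (0.533), Siglec1 (0.220) and Timd4 (0.0639) stood below them, again with neighbours overlapping.

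**Figure D1:**
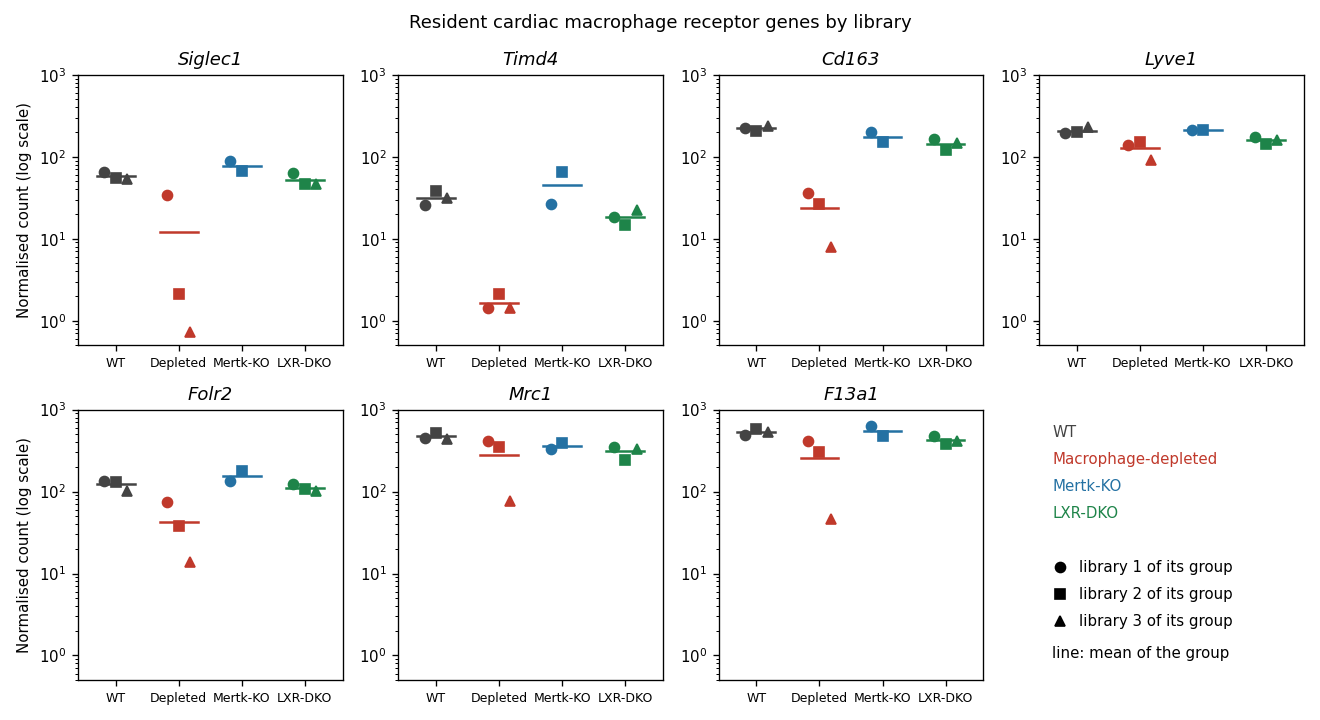
Normalised counts (log scale) of the 7 genes in each of the 11 libraries, by group, with points for libraries and lines for group means. All Macrophage-depleted points lie below all WT points, with Timd4 at 1.41 to 2.12 against 25.5 to 37.9, and Macrophage-depleted 1 stands apart for Siglec1 at 33.8.

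Macrophage-depleted hearts were first compared with WT hearts to ask how far toxin treatment of CD169-DTR mice removed each of these transcripts. Every one of the 7 was lower in all 3 Macrophage-depleted libraries than in all 3 WT libraries, where 8.15% of the 13884 tested genes were. Timd4 and Cd163 fell past the threshold (limma, Benjamini-Hochberg adjusted p below 0.05), so that 2 of 7 were called lower, against 0.158% of all tested genes. The remaining 5 had unadjusted p below 0.05 but not adjusted p. Among all 13884 tested genes, 1046 had an unadjusted p below 0.05. The median log2 difference of the 7 was -1.81 and that of all tested genes 0.0029. Since RNA came from whole hearts, fewer cells of a type and less RNA per cell cannot be told apart.

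Timd4, the phosphatidylserine receptor, measured 25.5, 37.9 and 31.4 normalised counts in the WT libraries and 1.41, 2.12 and 1.44 in the Macrophage-depleted ones. The depleted values were alike and under the floor of 3 reads or at it, with 1, 3 and 2 reads. On the log2(value + 1) scale Timd4 fell by 3.61 (SE 0.37, adjusted p 0.00343), which understates the change of so low a gene. Per read sequenced, the 6 reads of the depleted libraries against 91 in WT put Timd4 at 5.53% of WT (exact 95% interval 1.98% to 12.5%, counting error only). The call held in each of the 24 alternatives in which Timd4 was tested, with adjusted p from 0.000147 to 0.029.

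Cd163, the haemoglobin scavenger receptor, stood at 225, 206 and 239 normalised counts in WT hearts and at 36.6, 26.2 and 7.89 after depletion. Every depleted library was under 17% of the WT mean, at 16.4%, 11.7% and 3.53%. On the same scale Cd163 fell by 3.42 (SE 0.39, adjusted p 0.00749). Leaving out WT 3 ended the call (adjusted p 0.055), which held in the other 24 of its 25 alternatives.

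Siglec1, the sialic acid lectin, was present at 64.3, 55.3 and 53.4 normalised counts in WT hearts, against 33.8, 2.12 and 0.719 in Macrophage-depleted hearts. Macrophage-depleted 1 held 24 reads, or 57.8% of WT per read sequenced (36.0% to 89.1%), whereas Macrophage-depleted 2 and 3 held 3 reads and 1 read, or 3.85% (0.787% to 11.5%) and 1.27% (0.032% to 7.19%). With that spread the log2 difference of -3.36 (SE 0.80) did not pass (adjusted p 0.178). Without Macrophage-depleted 1 it was -4.66 with an adjusted p of 0.00016. It also passed with voom weights (-4.07, adjusted p 0.0444) and with weights per library (-3.87, adjusted p 0.0115). In the TPM table Siglec1 differed by -1.94 (adjusted p 0.462). In Macrophage-depleted 1, Timd4 and Cd163 were at 4.45% and 16.4% of their WT means, and Siglec1 was at 58.6%.

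Folr2, the folate receptor, measured 135, 132 and 103 normalised counts in the WT libraries and 74.6, 38.2 and 13.7 in the Macrophage-depleted ones. The groups did not overlap, and the depleted libraries spanned a 5.46-fold range. The log2 difference of -1.81 (SE 0.43) did not pass (adjusted p 0.177). Without Macrophage-depleted 1 it was -2.37 (adjusted p 0.0206). That fit called 4 of the 7 genes, and 41 genes among all tested. Without Macrophage-depleted 3 the difference of Folr2 was -1.18.

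Mrc1, the mannose receptor, stood at 455, 522 and 433 normalised counts in WT hearts and at 409.6, 348 and 77.7 after depletion. Macrophage-depleted 1 and 2 were at 87.2% and 74.0% of the WT mean, below every WT library (92.1% to 111%), and Macrophage-depleted 3 was at 16.5%. The log2 difference was -1.07 (SE 0.46, adjusted p 0.617), and -0.31 without Macrophage-depleted 3.

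F13a1, the factor XIII subunit, measured 496, 580.5 and 537 normalised counts in the WT libraries and 417, 303 and 46.8 in the Macrophage-depleted ones. It followed the pattern of Mrc1, with Macrophage-depleted 3 at 8.70% of the WT mean and the other 2 at 77.5% and 56.4%. The log2 difference was -1.56 (SE 0.58, adjusted p 0.506), and -0.59 without Macrophage-depleted 3. Of the platelet genes, Gp1ba and Itga2b passed the minimum, with differences of -0.23 and -0.09 and adjusted p of 0.975 and 0.996. The summed level of the 8 platelet and megakaryocyte genes was 65.1 to 88.7 in WT and 50.1 to 60.5 in Macrophage-depleted libraries, and its part in F13a1 was not tested.

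Lyve1, the hyaluronan receptor, stood at 194, 202 and 228 normalised counts in WT hearts and at 141, 153 and 92.1 after depletion. It was at 61.9% of its WT mean, the most of the 7, with a log2 difference of -0.72 (SE 0.17, adjusted p 0.178). That order rests on Macrophage-depleted 3: without it Lyve1 differed by -0.49 and Mrc1 by -0.31. Of 8 genes of lymphatic endothelium, which also carries Lyve1, 7 had a difference above 0 in Macrophage-depleted hearts and none passed, with a median of 0.28. Their summed level was 2211 to 2661 in WT and 2188 to 2976 in Macrophage-depleted libraries, none of the 8 was at 0 in every library, and their part in the level of Lyve1 was not tested.

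**Figure D2:**
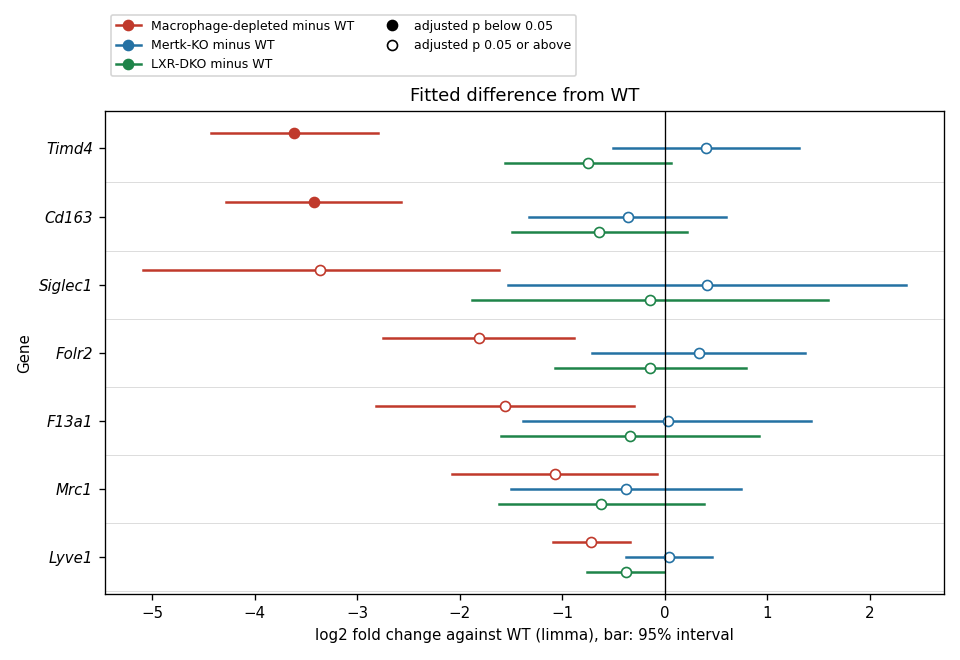
Log2 differences of the 7 genes (log2(normalised count + 1)) from WT in the 3 other groups, with 95% intervals from limma and filled points for adjusted p below 0.05. Macrophage-depleted differences run from -3.61 for Timd4 to -0.72 for Lyve1, and those of Mertk-KO and LXR-DKO lie between -0.75 and 0.41.

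Ordered by the log2 difference, the 7 genes ranked 5 (Timd4), 7 (Cd163), 8 (Siglec1), 29 (Folr2), 46 (F13a1), 104 (Mrc1) and 257 (Lyve1) from the lowest of 13884. The order of the first 3 depends on the scale, and Timd4 and Siglec1 rest on 1 to 3 reads in most depleted libraries. With a pseudocount of 5 the differences were -3.16 for Cd163, -2.45 for Timd4 and -2.42 for Siglec1. In the TPM table they were -3.20, -3.03 and -1.94, and with values as deposited -2.68, -1.43 and -1.59. The 3 Macrophage-depleted libraries differed in extent: the median of the 7 differences from the WT mean was -0.71, -1.66 and -3.49 in libraries 1, 2 and 3. The mean of the 18 pan-macrophage genes ran in the same order, at -0.37, -0.52 and -1.43. Timd4 differed by -3.74, -3.37 and -3.72, on too few reads (1 to 3) to order these libraries.

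**Figure D3:**
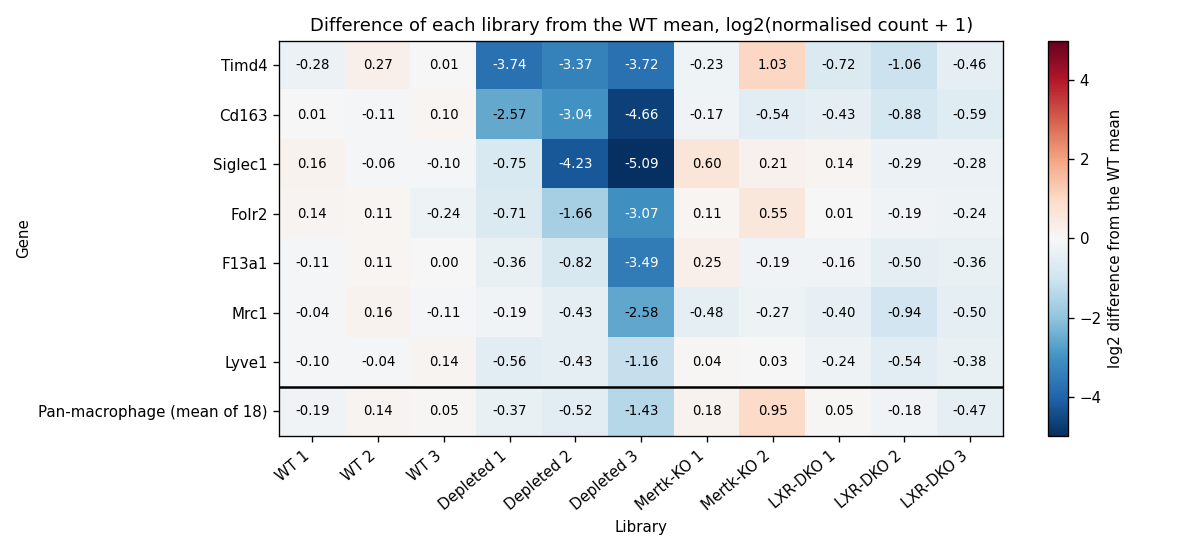
Difference of each of the 7 genes from its WT mean (log2(normalised count + 1)) in every library, with the mean of 18 pan-macrophage genes in the last row and colour for sign and size. In Macrophage-depleted 1 Timd4 (-3.74) and Cd163 (-2.57) are lowest and Siglec1 follows at -0.75, while in Macrophage-depleted 3 all genes but Lyve1 (-1.16) are at -2.58 or lower.

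Because general macrophage genes were lower as well, each gene was set against the mean log2 level of the 18 pan-macrophage genes of the same library. Their median difference between Macrophage-depleted and WT was -0.82, with 17 of 18 below 0 and none called. Relative to that mean, Timd4 differed by -2.84, Cd163 by -2.65, Siglec1 by -2.58 and Folr2 by -1.04, each with a two-sided exact permutation p of 0.1, the smallest that 3 against 3 libraries can give. For these 4 genes every depleted library lay below every WT library in normalised counts. In the TPM table this relative value of Siglec1 overlapped WT, with a difference of -1.21 (exact permutation p 0.3). The TPM of Siglec1 itself did not overlap, at 0.00879 to 0.581 against 0.723 to 0.833 in WT. A pseudocount of 0.1 was added to TPM before taking log2. For F13a1 the relative difference was -0.78 (exact permutation p 0.3), for Mrc1 -0.29 (0.9) and for Lyve1 0.06 (0.9), and the libraries overlapped. Set against Csf1r, Adgre1 and Cd68 alone, F13a1 did not overlap WT (-0.88, exact permutation p 0.1). The relative value of Siglec1 was -0.38 in Macrophage-depleted 1 and -3.71 and -3.66 in libraries 2 and 3. Those of Mrc1 were 0.17, 0.09 and -1.14 and those of F13a1 0.00, -0.30 and -2.06, so that both were near the pan-macrophage genes in 2 libraries and below them in the third. Without Macrophage-depleted 3 the relative difference was -0.15 for F13a1 and 0.13 for Mrc1.

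**Figure D4:**
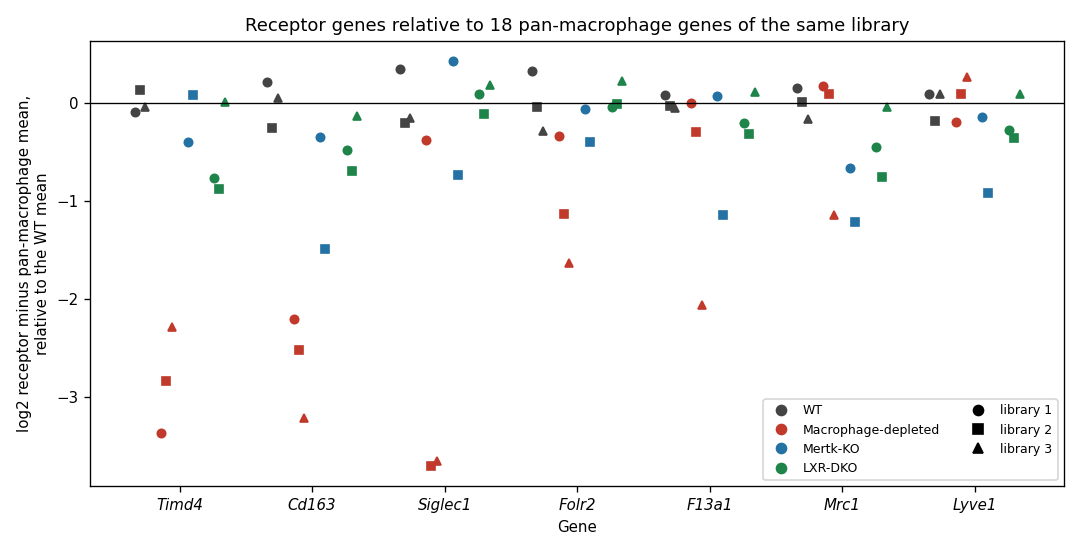
Log2 level of each gene minus the mean log2 level of 18 pan-macrophage genes in the same library, shown relative to the WT mean for all 11 libraries (points, coloured by group). Timd4, Cd163, Siglec1 and Folr2 lie lower in all Macrophage-depleted than in all WT libraries (normalised counts). In the TPM table the relative value of Siglec1 overlaps WT. Lyve1, at -0.19 to 0.27, overlaps WT at -0.18 to 0.09.

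Other cell types were followed by marker lists in the same comparison. Of 12 tested genes of resident macrophages outside the 7, all 12 had a difference below 0 and none was called, with a median of -0.69. Ccl24, a chemokine of the eosinophil-attracting kind, was at 2.81 ± 2.53 against 24.8 ± 7.02 (SD, n = 3 each; log2 difference -3.07, adjusted p 0.0748). All 6 tested genes of monocytes and recruited macrophages were above 0 without a call, including Ccr2, the chemokine receptor of inflammatory monocytes, at 145 ± 34.1 against 63.5 ± 9.79 (1.17, adjusted p 0.302). The summed level of the monocyte list was 1388 to 1933 in Macrophage-depleted and 1235 to 1499.6 in WT libraries. In WT, Ccr2 was at 63.5, Ly6c2 at 49.1 and Cd52 at 25.6, so that sum mostly reflects other genes of the list. Of the 4 tested neutrophil genes, 3 were above 0 (median 0.42) and none was called. The neutrophil sum was 85.6%, 134% and 225% of the WT mean in Macrophage-depleted libraries 1, 2 and 3, the reverse of the order of the 7 genes. Of the adipocyte genes, 5 of 6 were below 0 (median -1.73), and of the B cell genes 6 of 7 (median -0.39), none of them called. The adipocyte sum was 96.1%, 98.8% and 118% of the WT mean in Macrophage-depleted libraries 1, 2 and 3. In WT that sum was 5539.5 to 6333, with Car3 at 58.7, Cfd at 38.1 and Plin1 at 11.5. It therefore mostly reflects other genes of the list and does not follow these 3. Taken gene by gene, the median adipocyte log2 change was -1.07, -2.04 and -1.92 in the same libraries. In single WT libraries this median lay between -0.52 and 0.57. The B cell sum in Macrophage-depleted libraries 1, 2 and 3 was 91.1%, 54.3% and 34.7% of the WT mean, in the same order as the 7 genes, and the part of these cell types in the results was not tested. Cardiomyocyte genes had a median difference of 0.00, with the myosin gene Myh6 at 400488 ± 25678 normalised counts in WT, and fibroblast genes had one of 0.08.

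**Figure D5:**
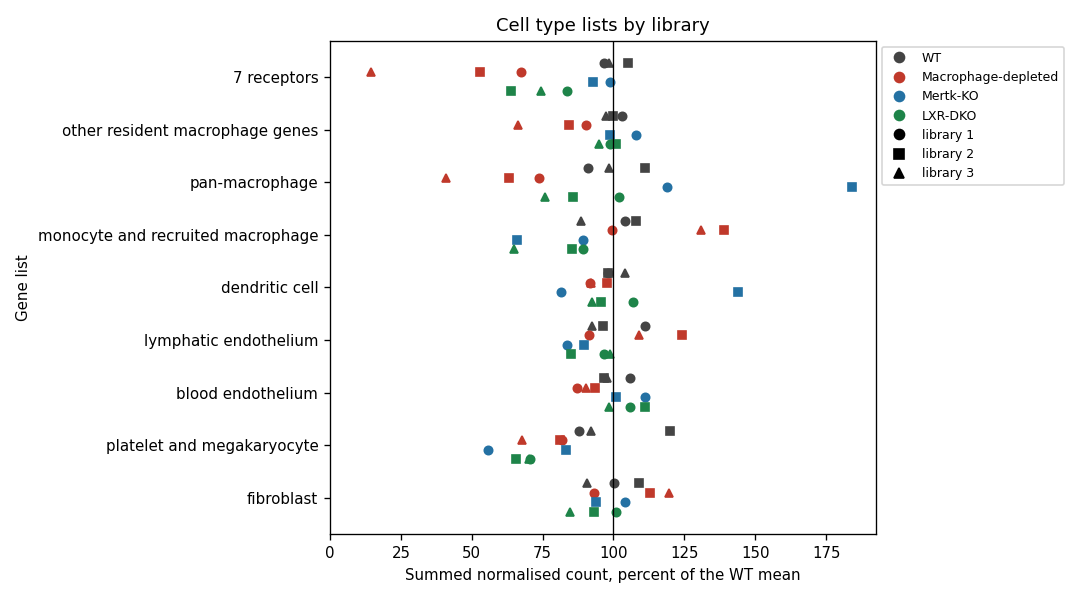
Summed normalised counts of the 7 genes and of marker lists in each library, as a percentage of the WT mean. In Macrophage-depleted libraries 1, 2 and 3 the 7 genes are at 67.4%, 52.9% and 14.5% and the pan-macrophage list at 73.6%, 63.2% and 40.8%.

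Genes that share a process or family with each receptor were counted next, and none was called in Macrophage-depleted against WT. Among 4 tested sialic acid lectins and their like, 2 were above and 2 below 0 (median -0.12), and Cd33 was at 50.8 ± 23.6 against 119 ± 6.96 (-1.33, adjusted p 0.224). Of 12 genes of phosphatidylserine recognition, 8 were below 0 (median -0.03). They included the scavenger receptor Stab1 at -0.64 (adjusted p 0.224) and, on the other side, the receptor kinase Axl at 0.42 (adjusted p 0.405). Of 11 genes of haemoglobin and haem clearance, 6 were below 0 (median -0.12), with the iron exporter Slc40a1 at -0.43 (adjusted p 0.417) and the haem oxygenase Hmox1 at 0.41 (adjusted p 0.662). The hyaluronan system had 4 of 10 below 0 (median 0.06), folate transport and use 4 of 11 (0.05), the mannose receptor family 1 of 5 (0.07), and transglutaminases and fibrin 3 of 6 (0.08). The medians of these lists lay between -0.12 and 0.08, and that of the 7 genes was -1.81.

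Mertk-KO hearts, labelled as knocked out for Mertk, a receptor kinase for the engulfment of dying cells, were compared with WT hearts. None of the 7 genes was called by limma or had an unadjusted p below 0.05, which 3977 of the 13884 tested genes had. Voom weights called none of the 7 either. In either direction, 9.27% of tested genes were called by limma. That background of 1287 genes fell to 162, 167 and 70 without WT 1, 2 and 3, to 633 without LXR-DKO 1 and to 1 in a fit of these 2 groups alone, and it rose to 2399 without Mertk-KO 2. Timd4 was at 26.6 and 64.7 normalised counts, on either side of its WT values, and its log2 difference of 0.40 became -0.23 without Mertk-KO 2. Siglec1, at 87.9 and 66.8, lay above every WT library (0.41, adjusted p 0.8), where 21.4% of tested genes did. Cd163, at 198 and 153 (-0.36, adjusted p 0.636), and Mrc1, at 335 and 388 (-0.38, adjusted p 0.668), lay below every WT library, where 21.1% of genes did. Folr2 was at 133 and 179.9 (0.33), Lyve1 at 214 and 212 (0.04) and F13a1 at 636 and 469.8 (0.03), and each overlapped WT. In Mertk-KO 2 the 18 pan-macrophage genes were on average 0.95 above the WT mean on the log2 scale, and the median of the 7 genes was 0.03 above it. Relative to that list and to WT, Mertk-KO 2 was lowest for Cd163 (-1.49), Mrc1 (-1.22) and F13a1 (-1.14), against -0.35, -0.66 and 0.07 in Mertk-KO 1. The 95% interval of the difference ran from -0.50 to 1.31 for Timd4 and from -1.53 to 2.35 for Siglec1.

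LXR-DKO hearts, labelled as knocked out for both liver X receptors, nuclear receptors for oxysterols, were compared with WT hearts. None of the 7 genes was called, against 0.418% of tested genes (limma and its voom version called none). Only Lyve1 had an unadjusted p below 0.05, as did 1601 of the 13884 tested genes. All 7 differences were below 0, with a median of -0.38 against 0.0011 for all genes. Timd4 was at 18.5, 14.5 and 22.5 normalised counts, or 58.5% of the WT mean (-0.75, SE 0.37, adjusted p 0.47), and Cd163 at 165, 121 and 147, or 64.6% (-0.64, SE 0.39, adjusted p 0.563). Mrc1 was at 354, 244 and 330 (-0.62, adjusted p 0.633), Lyve1 at 176, 142 and 159 (-0.38, adjusted p 0.423), and F13a1 at 479, 380.1 and 419 (-0.34, adjusted p 0.861). These 5 genes lay below WT in every library, where 10.7% of tested genes did. Siglec1, at 63.5, 46.9 and 47.1, and Folr2, at 123, 107 and 103, each differed by -0.14 and overlapped WT. In the TPM table Folr2 differed by -0.38 (adjusted p 0.709) and did not overlap WT, at 77.2% of its mean. The pan-macrophage genes had a median difference of -0.24, with 14 of 18 below 0. In the folate list Shmt1, a serine hydroxymethyltransferase, fell by 0.97 (67.6 ± 9.02 against 134 ± 19.2, adjusted p 0.0262), and no other gene of the process lists was called.

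Macrophage-depleted hearts were also compared directly with the 2 other mutant groups. The same Macrophage-depleted libraries serve here and against WT, so the values are given side by side only. Against Mertk-KO, 5 of the 7 genes were called lower, where 9.39% of tested genes were. These were Timd4 (-4.01, adjusted p 0.000635), Siglec1 (-3.76, 0.0149), Cd163 (-3.07, 0.0029), Folr2 (-2.15, 0.012) and Lyve1 (-0.76, 0.0194), while F13a1 (-1.59, 0.0987) and Mrc1 (-0.69, 0.36) did not pass. The count was 1 in a fit of these 2 groups alone, and 146 of all tested genes. Of the 18 pan-macrophage genes, 14 were called lower in that comparison. Against LXR-DKO, Timd4 (-2.87, adjusted p 0.00183) and Cd163 (-2.79, 0.00327) were called lower, 2 of 7 against 1.89% of tested genes. Siglec1 (-3.21, 0.0505) and Folr2 (-1.67, 0.0562) were above the threshold, and passed in 9 of 24 and 8 of 25 alternatives. Both passed without Macrophage-depleted 1, and also without Mertk-KO 1 or Mertk-KO 2, which are not part of this comparison. Between Mertk-KO and LXR-DKO none of the 7 was called, where 2.46% of tested genes were. All 7 were higher in Mertk-KO (median 0.42, against -0.0234 for all tested genes). Timd4 had the greatest difference of the 7, at 45.6 ± 26.9 (n = 2) against 18.5 ± 3.99 (n = 3) (1.15, adjusted p 0.142). The 18 pan-macrophage genes were all higher in Mertk-KO as well, with a median of 0.77 and 2 called.

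The genes most like each of the 7 were found by the root mean square difference of their log2 differences from the WT mean over the 8 libraries outside WT, among 13036 genes with annotated names. Cd163 was nearest to Ccl24 (0.39), P2ry13 (0.77) and Timd4 (0.79). Timd4 in turn was nearest to Cd163, Mmp13 (0.82) and Lilra5 (0.87), and Siglec1 to Lilra5 (0.90), Cd163 (0.93) and Ccl24 (0.96). Folr2 was nearest to Pf4 (0.34) and to the complement genes C1qc (0.36) and C1qa (0.39). F13a1 was nearest to Cbr2 (0.30), Fcna (0.37) and Pf4 (0.39), and Mrc1 to P2ry12 (0.22), C3ar1 (0.30) and Slc9a9 (0.38). Lyve1, whose values varied least, was nearest to Foxm1 (0.16), Ctsc (0.17) and Pfkfb4 (0.19). Among the 7 themselves the nearest pairs were F13a1 with Folr2 (0.46) and with Mrc1 (0.48), and the farthest was Siglec1 with Lyve1 (1.95). The libraries share 1 set of WT means, so these values describe likeness and carry no p.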

How the data were processed

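RNA was amplified (Ovation kit, NuGen) and sequenced as Illumina libraries, per the labels' protocols. RSEM 1.2.20, kallisto 0.43.1, CASAVA 1.8.2, cutadapt and the GRCm38 build are named in the submitters' processing notes. Their roles and any use of strand are not stated there. The authors deposited 2 tables of signal: read counts plus 0.5, divided by an effective size of the library, as the values show, and TPM rescaled between libraries. Here the added 0.5 read was removed, estimated reads were recovered (59.1% to 62.8% of low values whole within 0.01, so no count model was run) and rescaled to the mean effective size. Genes with a mean of at least 10 were tested with limma 3.58.1 (R 4.3.3; trend, 1 model of 4 groups, 7 residual degrees of freedom, two-sided) on log2(value + 1), with Benjamini-Hochberg adjustment over 13884 genes and a threshold of 0.05. The script was tested on simulated data.

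The 7 genes and the lists were chosen with earlier results of these data known. Named besides the 7 are up to 3 genes per list with the smallest p against WT in Macrophage-depleted, list genes past the threshold, and the 3 nearest genes of each; not all of them are printed. Alternatives were leaving out each library, other pseudocounts (0.5 and 5), minimums, scalings and weights, the TPM table, values as deposited, fits of 2 groups, and a replicate block. The TPM table was fitted on log2(TPM + 0.1), with a minimum mean of 0.5. Deviations of same-numbered libraries correlated at -0.094 to 0.107 (15 pairs), so numbers were not taken as pairs.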

Additional observations from a re-analysis of the deposited data

How the results depend on the processing

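Each comparison was refitted under 25 alternatives, of which removal of a transcript length trend was added after seeing the data. In Macrophage-depleted against WT, 2 of the 7 genes were called, and 33 of all tested genes. With a minimum mean of 50 it was 1, and 23 of all tested genes (Timd4 and Siglec1 were then untested). With voom weights it was 3 (Siglec1 added). Over the alternatives, 3 to 219 of all tested genes were called. Weights per library called 5 of the 7, and 219 of all tested genes. When a library was left out, 1 to 4 were called. It was 1 without WT 3 (3 of all tested genes) and 4 without Macrophage-depleted 1 (41 of all tested genes). Against Mertk-KO, 5 were called, and 2911 of all tested genes. The count of the 7 was 3 in the TPM table (1556 of all tested genes). It was 1 in the fit of 2 groups (146 of all tested genes) and 2 with weights per library (438). With a minimum mean of 50 it was 3. Without a library it was 4 to 6, with 1379 to 3238 of all tested genes. Against LXR-DKO, 2 were called, and 450 of all tested genes. The count was 1 with a minimum mean of 50. It was 4 with a pseudocount of 5, values as deposited, voom weights or the replicate block. Over the alternatives, 140 to 2043 of all tested genes were called. Weights per library called 5 of the 7, and 2043 of all tested genes. Without a library the count of the 7 was 2 to 4, and it was 4 without Macrophage-depleted 1. It was also 4 without Mertk-KO 1 or Mertk-KO 2, which are not part of this comparison (1226 and 1228 of all tested genes). There the differences of Siglec1 and Folr2 stayed at -3.21 and -1.67. None of the 7 was called in the other 3 comparisons under any alternative. The block on replicate number left the count against WT at 2, and the numbers are not known to pair the libraries.

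Signs turned only for differences that were not called. In Mertk-KO against WT, Lyve1 (0.04) was -0.04 with scaling by total reads, -0.01 in the TPM table, -0.01 with the replicate block and -0.0014 with the length trend removed, and -0.01 to 0.11 without a library. F13a1 (0.03) was -0.05, -0.03 and -0.30 under the first 3 of these and -0.19 to 0.25 without a library (-0.03 without WT 1), and Timd4 was -0.23 to 1.03. Siglec1 in LXR-DKO against WT was 0.01 with weights per library, and Mrc1 between Mertk-KO and LXR-DKO -0.01 with the replicate block. Mrc1 in Macrophage-depleted ranged from -1.12 to 0.07 against Mertk-KO and from -0.89 to 0.31 against LXR-DKO when a library was left out, with the highest value without Macrophage-depleted 3. Relative to the pan-macrophage genes, Lyve1 (0.06) was -0.0021 with a pseudocount of 5, -0.03 against Csf1r, Adgre1 and Cd68 only, and -0.05 to 0.18 without a library (-0.03 without WT 2), and Mrc1 (-0.29) was -0.52 to 0.13 (highest without Macrophage-depleted 3). Siglec1 (-2.58) was -1.21 in the TPM table, and this relative value overlapped WT there. The cause of these changes was not tested. Over all tested genes, the count called in Macrophage-depleted against WT was 33 and ranged from 3 (without WT 3) to 219 (weights per library). It ranged from 1 (the fit of 2 groups) to 2399 in Mertk-KO against WT (1287), from 31 to 593 in LXR-DKO against WT (58), from 146 to 3238 in Macrophage-depleted against Mertk-KO (2911), from 140 to 2043 against LXR-DKO (450) and from 19 to 2167 between Mertk-KO and LXR-DKO (341). Read depth limits Timd4 and Siglec1 most, which had 1 to 3 reads in most Macrophage-depleted libraries.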
